A study of Mus musculus with 8 samples.

Results

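The 4 genes *Gria1*, *Gria2*, *Gria3* and *Gria4* encode the pore-forming subunits of the AMPA-type glutamate receptor. They were chosen by name, and all 4 were found among the 56576 genes of the deposited table. The RNA was bound to ribosomes carrying an HA-tagged Rpl22 protein and was pulled down with anti-HA beads from synaptosomes, the pinched-off synaptic endings of homogenized cerebral cortex, at postnatal day 15. The tag was expressed under *Lhx6-Cre*, a driver of early postmitotic interneurons born in the preoptic area and the medial ganglionic eminence (MGE), which become parvalbumin (PV+) and somatostatin (SST+) cells. Controls were *Lhx6-Cre;ErbB4+/+;Rpl22HA/HA* (4 libraries, replicates 1, 3, 4 and 5). *Erbb4* conditional mutants were *Lhx6-Cre;ErbB4F/F;Rpl22HA/HA* (4 libraries, replicates 2, 3, 4 and 5). Both genotypes therefore carried the Cre driver and the tagged ribosomal protein, and they differed in the floxed *Erbb4* alleles. The comparison asks which ribosome-associated transcripts of these interneurons differ at the synapse when the receptor tyrosine kinase ErbB4 is removed. The labels do not say how many animals went into each library. The paper states 4 biological replicates for each genotype and describes its replicates in general as coming from separate brains and litters. The p-values measure the spread between these libraries.

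AMPA receptors are tetramers of GluA1 to GluA4, the products of *Gria1* to *Gria4*, and carry most fast excitatory transmission in the brain. The GluA2 subunit sets permeability to calcium: its messenger is edited at a glutamine codon in the pore, and receptors that contain edited GluA2 pass little calcium. PV+ interneurons are known for calcium-permeable receptors poor in GluA2 and for expression of *Gria4*, which gives fast synaptic currents. Gene counts hold neither the editing state nor the flip and flop splice forms, so none of these properties was measured here.

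The coding sequences show how alike the 4 genes are. Between pairs of subunits they were identical at 65.8% (*Gria1* and *Gria4*) to 71.8% (*Gria2* and *Gria4*) of aligned bases, and the longest stretch shared without a mismatch was 41 bases, between *Gria2* and *Gria4*. The most alike 90-base window of all 4 genes is shown first. How reads of the family were assigned was not tested. All sequences are from GENCODE vM21 transcripts on GRCm38, in the 5′ to 3′ direction of the gene, and capitals mark the 18 positions at which the 4 genes are not all the same. The window lies in 1 coding exon of each gene, at chr11:57289373-57289462 (plus strand) for *Gria1*, chr3:80692318-80692407 (minus strand) for *Gria2*, chrX:41654131-41654220 (plus strand) for *Gria3* and chr9:4456038-4456127 (minus strand) for *Gria4*.
Gria1: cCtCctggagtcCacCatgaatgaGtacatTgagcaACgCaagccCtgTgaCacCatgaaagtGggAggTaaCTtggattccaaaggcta
Gria2: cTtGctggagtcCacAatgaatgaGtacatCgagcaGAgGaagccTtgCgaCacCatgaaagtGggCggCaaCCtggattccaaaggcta
Gria3: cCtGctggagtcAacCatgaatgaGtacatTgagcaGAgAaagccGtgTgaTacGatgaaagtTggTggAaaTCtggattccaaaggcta
Gria4: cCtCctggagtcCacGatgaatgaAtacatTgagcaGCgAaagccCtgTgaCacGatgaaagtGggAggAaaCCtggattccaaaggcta
In this window 72 of 90 bases were identical in all 4 genes, and the differences were spread along it.

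The last 60 coding bases are shown as the opposite case, because the cytoplasmic tails that bind scaffold proteins differ between subunits. Capitals mark the stop codon. They lie in the last coding exon at chr11:57327587-57327646 (plus strand), chr3:80689106-80689165 (minus strand), chrX:41672405-41672464 (plus strand) and chr9:4420152-4420211 (minus strand), in the order of the genes.
Gria1: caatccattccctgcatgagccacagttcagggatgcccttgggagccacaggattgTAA
Gria2: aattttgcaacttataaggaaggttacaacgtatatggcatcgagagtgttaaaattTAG
Gria3: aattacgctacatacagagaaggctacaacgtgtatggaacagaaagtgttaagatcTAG
Gria4: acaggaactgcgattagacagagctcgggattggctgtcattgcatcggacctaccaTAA
The *Gria2* and *Gria3* ends were identical at 45 of 60 bases, compared without gaps. The other pairs matched at 14 to 21 of 60 bases. The tails are those of the longest coding transcript of each gene, and other isoforms can end differently.

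The deposited values are reads counted on constitutive regions of each gene and divided by a size factor for each library, termed normalized counts here. Libraries held 51010687 to 80226984 reads, and no library had fewer than 2756 normalized counts of any subunit, so counting error is small beside the spread between libraries. *Erbb4*, the deleted gene, had 1640, 5377, 4306 and 3034 normalized counts in controls 1, 3, 4 and 5, and 1711, 1648, 1233 and 1048 in mutants 2, 3, 4 and 5. It was lower in mutants (log2 fold change -1.25 ± 0.34 SE, limma unadjusted p = 0.0041, adjusted p = 0.58), but the library labelled control replicate 1 held fewer *Erbb4* reads than 2 of the mutant libraries. Results that rest on that library are given without it where it decides them.

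*Gria1*, which encodes the subunit best known for activity-dependent insertion at synapses, lies at chr11:57005854-57330243 (mm10). It had 28377, 52500, 35231 and 21996 normalized counts in controls 1, 3, 4 and 5. In mutants 2, 3, 4 and 5 it had 33892, 29878, 16445 and 12868. Mutants 4 and 5 were below all controls, whereas mutants 2 and 3 lay inside the control range. The means were 34526 ± 13145 in controls and 23271 ± 10186 in mutants (SD, n = 4 each). The log2 fold change was -0.61 ± 0.36 (SE), with a 95% interval from -1.41 to 0.19, and did not pass the test (limma unadjusted p = 0.12, adjusted p = 0.59).

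*Gria2*, the subunit that limits calcium entry, lies at chr3:80681452-80802836. Its normalized counts were 32317, 35312, 26538 and 21018 in controls 1, 3, 4 and 5, and 24382, 30729, 22169 and 23718 in mutants 2, 3, 4 and 5. Every mutant lay inside the control range. The means were 28797 ± 6337 and 25250 ± 3769 (SD, n = 4 each), and the log2 fold change was -0.17 ± 0.23 (SE), with a 95% interval from -0.67 to 0.33 (limma unadjusted p = 0.46, adjusted p = 0.79).

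*Gria3*, the X-linked member of the family, lies at chrX:41400819-41678601. Its normalized counts were 12939, 17875, 12065 and 7749 in controls 1, 3, 4 and 5, and 10171, 11958, 7271 and 7863 in mutants 2, 3, 4 and 5. All mutants were below 3 of the controls, and control 5 was about as low as the lowest mutants. The means were 12657 ± 4153 and 9316 ± 2160 (SD, n = 4 each), and the log2 fold change was -0.41 ± 0.27 (SE), with a 95% interval from -1.01 to 0.19 (limma unadjusted p = 0.16, adjusted p = 0.62).

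*Gria4*, the subunit with fast kinetics associated with PV+ interneurons, lies at chr9:4417896-4796235 and had the lowest fold change of the family. Its normalized counts were 8789, 10021, 6332 and 3890 in controls 1, 3, 4 and 5. In mutants 2, 3, 4 and 5 they were 4949, 6325, 3137 and 2756. Controls 1, 3 and 4 were above all mutants, control 4 by a narrow margin, and control 5 lay among the mutants. The means were 7258 ± 2719 and 4292 ± 1659 (SD, n = 4 each), and the log2 fold change was -0.75 ± 0.34 (SE), with a 95% interval from -1.51 to 0.0054. The unadjusted p was 0.051 and the adjusted p 0.58 (limma), so it missed the threshold of 0.05 on the first and by far on the second.

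**Figure D1:**
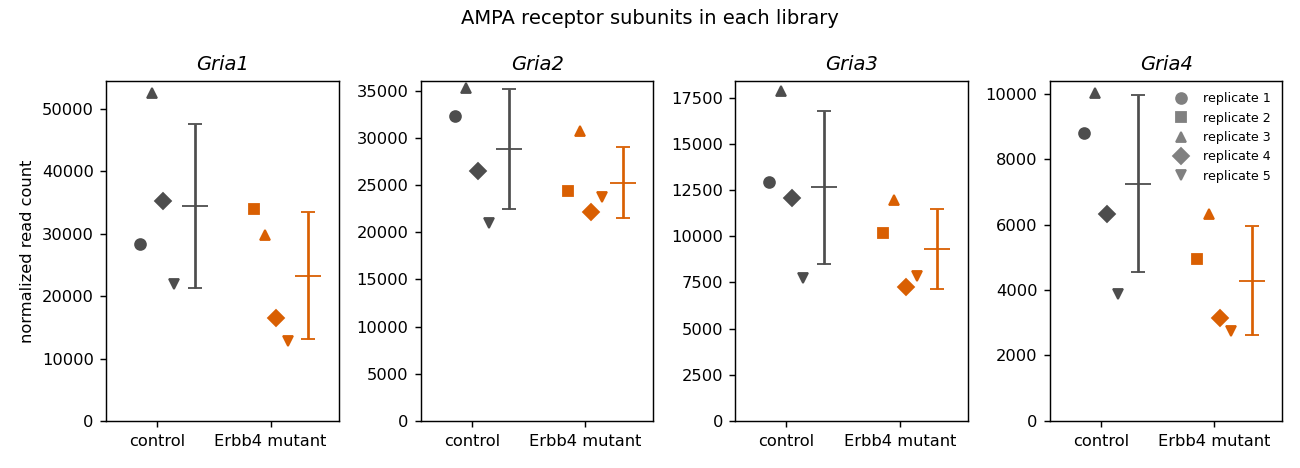
Normalized read counts (vertical axis, linear, from 0) of the 4 subunits in 4 control (grey) and 4 *Erbb4* mutant (orange) libraries, with marker shapes for replicate numbers and a bar beside them for the mean ± SD. Control replicate 3 is the highest library for each gene, and the genotypes overlap for each gene.

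A gene was called when it met both thresholds of the study, a change of 1.5-fold or more and an unadjusted p no higher than 0.05. By limma 0 of the 4 subunits were called, and 0 had an unadjusted p under 0.05. By edgeR 0 were called, and by DESeq2 1, *Gria4* (log2 fold change -0.73, DESeq2 unadjusted p = 0.041). The study itself tested with DESeq2, and it chose *Gria4* and the auxiliary subunit gene *Cacng2* as candidates from its genes lower in mutants. It then followed both by Western blot and by knockdown. Over all 31171 genes tested, 3.17% were called lower and 3.98% were called higher. The mutants were all below the controls for 0 of the 4 subunits, against 2.17% of all genes tested. All 4 log2 fold changes were below 0, with a median of -0.51, against a median of 0.055 over all genes tested, of which 46.63% were below 0. The 4 genes share libraries and are not 4 separate observations: control 3 was the highest library for all of them, and control 5 was the lowest control for all of them. Within controls the highest library exceeded the lowest by 2.39-fold for *Gria1*, 1.68-fold for *Gria2*, 2.31-fold for *Gria3* and 2.58-fold for *Gria4*. The fold from the difference in mean log2 values, mutant over control, was 0.656, 0.887, 0.753 and 0.594 in the order of the genes. A span over libraries and a fold between means are unlike measures, so the 2 are given as a description.

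The calls turned on the method and on single libraries. Without control 5, *Gria4* was called lower (log2 fold change -1.02, unadjusted p = 0.0087 by limma) and so was *Gria3* (-0.62, unadjusted p = 0.030). Without mutant 3, *Gria4* was called lower as well (-0.96, unadjusted p = 0.020). *Gria4* without the library labelled control replicate 1 was at -0.63 and stayed uncalled. In all 20 alternatives run, the 4 log2 fold changes stayed below 0, ranging from -0.90 to -0.36 for *Gria1*, -0.32 to -0.0099 for *Gria2*, -0.62 to -0.22 for *Gria3* and -1.02 to -0.56 for *Gria4*. The number of alternatives that called the gene was 2 for *Gria1*, 0 for *Gria2*, 1 for *Gria3* and 7 for *Gria4*, and the lowest adjusted p over them was 0.10, 0.55, 0.35 and 0.13. Fits that left out a library gave 0, 0, 1 and 2 of these calls, and changes of method gave the others.

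**Figure D2:**
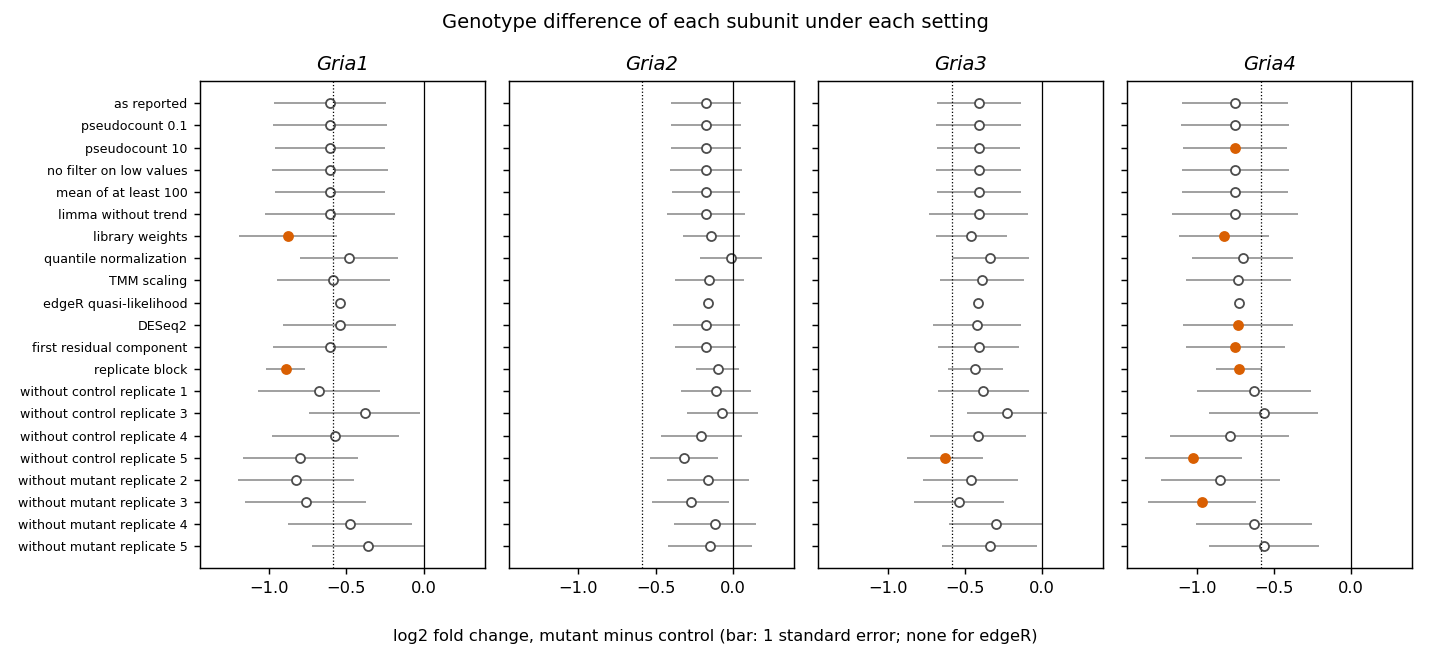
Log2 fold change of each subunit (horizontal axis, mutant minus control, bar of 1 SE where the method gives one) as reported and under 20 alternatives (rows). Orange points meet both thresholds, open points do not, and the dotted line marks a 1.5-fold decrease. All points lie below 0, and *Gria4* has the most orange points, 7.

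The level of the subunits was then compared with one another per length, since longer transcripts yield more reads. The lengths of the constitutive regions counted by the authors were not in the files, so 2 lengths were used, that of the longest coding transcript and that of its coding sequence. The choice matters for *Gria2*, whose transcript is 10371 bases long against 5546 for *Gria1*, 5192 for *Gria3* and 5441 for *Gria4*, while the coding lengths are 2724, 2652, 2667 and 2709 in the order of the genes. Per transcript length, *Gria1* made up 48.3% ± 4.8 of the summed level in controls, *Gria2* 22.3% ± 3.2, *Gria3* 19.0% ± 0.84 and *Gria4* 10.3% ± 1.9 (SD, n = 4). Per coding length, the same shares were 40.5%, 35.8%, 15.2% and 8.52%. On either length *Gria3* was above *Gria4* in 4 of 4 controls. *Gria2* was above *Gria3* in 3 of 4 controls per transcript length, and *Gria1* was above *Gria2* in 3 of 4 controls per coding length, so those neighbours were not separated by every library. With 4 pairs the exact permutation test cannot go below p = 0.125.

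Among the 15183 tested genes with an annotated length, *Gria1* ranked 515 in controls per transcript length (top 3.39%), *Gria2* 1419 (top 9.35%), *Gria3* 1627 (top 10.7%) and *Gria4* 2955 (top 19.5%). Per coding length the ranks were 689, 822, 1997 and 3350.

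The composition of the family in mutants overlapped with that in controls. Per transcript length, *Gria1* was at 44.1% ± 7.9, *Gria2* at 27.6% ± 6.0, *Gria3* at 19.9% ± 2.3 and *Gria4* at 8.41% ± 0.97 (SD, n = 4). The *Gria2* share was 25.3%, 18.8%, 20.6% and 24.7% in controls 1, 3, 4 and 5, and 20.7%, 25.1%, 30.2% and 34.5% in mutants 2, 3, 4 and 5. Mutants 4 and 5, which had the lowest counts of *Gria1* and *Gria4*, had the highest *Gria2* share. The *Gria4* share was 13.1%, 10.1%, 9.39% and 8.72% in controls and 8.03%, 9.84%, 8.14% and 7.64% in mutants, so 3 mutants lay below all controls and mutant 3 lay among them. Differences from controls were -4.2 percentage points for *Gria1*, 5.3 for *Gria2*, 0.83 for *Gria3* and -1.9 for *Gria4*, and none passed a two-sided exact permutation test (p = 0.40, 0.17, 0.60 and 0.086, adjusted over the 4 genes to at least 0.34). The sizes depended on single libraries. Without mutant 5 the differences were -1.2, 3.0, -0.17 and -1.7 points in the order of the genes, and without mutant 2 they were -7.5, 7.6, 1.7 and -1.8. Without the library labelled control replicate 1 they were -6.5, 6.3, 1.2 and -1.0. Per coding length *Gria2* made up the larger share in mutants, 42.4% ± 7.4 against 35.7% ± 7.9 for *Gria1* (SD, n = 4), and was above it in 3 of 4 mutants, whereas *Gria1* was above *Gria2* in 3 of 4 controls. *Gria3* was at 15.2% ± 1.1 and *Gria4* at 6.69% ± 0.92 on that length. The differences from controls were then -4.8, 6.6, 0.0060 and -1.8 points, and none passed the exact permutation test either (adjusted p from 0.34 to 1.0, n = 4 each).

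**Figure D3:**
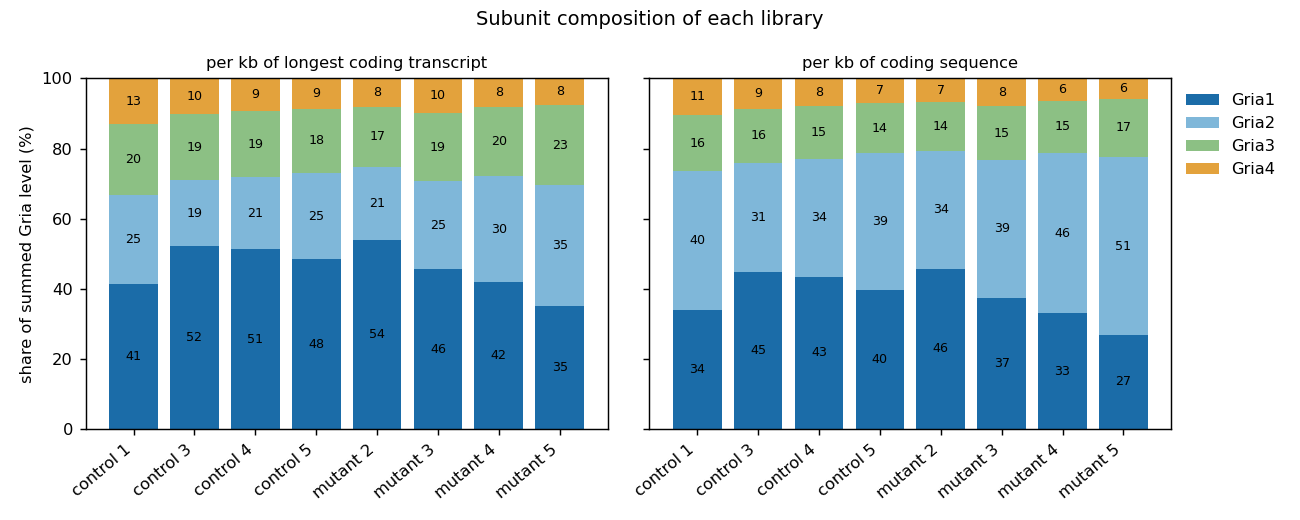
Share of each subunit (%, vertical axis) in the summed level of the 4 subunits in each of the 8 libraries, per kilobase of the longest coding transcript (left) and of coding sequence (right). Per transcript length *Gria2* ranges from 18.8% in control 3 to 34.5% in mutant 5, and it takes a larger share per coding length in each library.

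Ratios between 2 subunits within a library depend neither on the size factor nor on the length chosen for a comparison between genotypes. The *Gria2*/*Gria4* ratio of normalized counts was 3.68, 3.52, 4.19 and 5.40 in controls 1, 3, 4 and 5, and 4.93, 4.86, 7.07 and 8.61 in mutants 2, 3, 4 and 5. Mutants 4 and 5 exceeded all controls, and mutants 2 and 3 exceeded 3 of the 4. The mean ratio was 4.20 ± 0.85 in controls and 6.36 ± 1.8 in mutants (SD, n = 4), a log2 difference of 0.58 ± 0.25 (SE) that did not pass the test (two-sided exact permutation p = 0.086, 0.26 after adjustment over the 6 pairs).

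The *Gria3*/*Gria4* ratio was 1.47, 1.78, 1.91 and 1.99 in controls 1, 3, 4 and 5, and 2.05, 1.89, 2.32 and 2.85 in mutants 2, 3, 4 and 5. Mutants 2, 4 and 5 were above all controls. Its log2 difference was 0.34 ± 0.16 (SE, exact permutation p = 0.086, adjusted 0.26, n = 4 each). For *Gria2*/*Gria3* the log2 difference was 0.24 ± 0.13 (exact permutation p = 0.14, adjusted 0.29, n = 4 each). In each of these 3 ratios the mutant mean was the higher one, and the genotypes overlapped.

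Ratios with *Gria1* differed in both directions. *Gria1*/*Gria2* was 0.878, 1.49, 1.33 and 1.05 in controls and 1.39, 0.972, 0.742 and 0.543 in mutants. Mutant 2 was among the highest libraries and mutant 5 the lowest, and the log2 difference of -0.43 ± 0.34 (SE) did not pass the test (exact permutation p = 0.26, adjusted 0.39, n = 4 each). It was -0.21 without mutant 5 and -0.67 without mutant 2. *Gria1*/*Gria3* differed by -0.20 ± 0.23 (p = 0.49) and *Gria1*/*Gria4* by 0.14 ± 0.23 (p = 0.57) on the log2 scale by the same exact test. Mutants 5 and 2 also moved *Gria1*/*Gria3*, to -0.023 and -0.36. Without the library labelled control replicate 1, *Gria1*/*Gria4* was -0.048, and without mutant 2 it was 0.020. With 4 libraries against 4 its smallest p is 0.029.

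**Figure D4:**
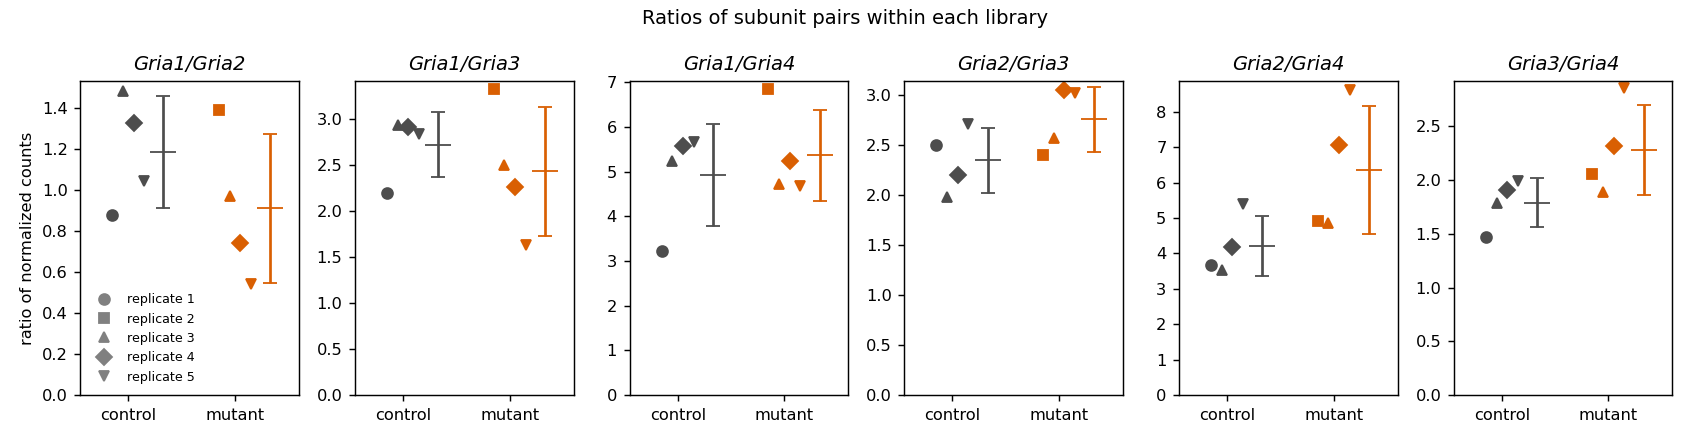
Ratio of normalized counts (vertical axis, linear, from 0) for the 6 pairs of subunits in controls (grey) and *Erbb4* mutants (orange), one point per library, with the mean ± SD beside them. *Gria2*/*Gria4* runs from 3.52 to 5.40 in controls and from 4.86 to 8.61 in mutants, and the genotypes overlap in each panel.

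The marker lists of the pulled-down cells had medians below 0, as the subunits did (-0.51), but so did several other lists. Median log2 fold changes were -0.54 for CGE interneurons and for pan-neuronal genes, -0.62 for oligodendrocytes and -0.44 for microglia. They were -0.18 for excitatory neurons, -0.11 for astrocytes, 0.04 for oligodendrocyte precursors and 0.54 for endothelial and mural cells. The tagged cells' own markers were read in each library, with *Lhx6*, the transcription factor of MGE-derived interneurons, at 1130, 1781, 1280 and 701 normalized counts in controls 1, 3, 4 and 5, and 899, 964, 577 and 532 in mutants 2, 3, 4 and 5. Its log2 fold change of -0.69 ± 0.32 (SE) was not called (limma unadjusted p = 0.055, adjusted p = 0.58), but it was without control 5 (-0.93), mutant 2 (-0.80) or mutant 3 (-0.83). All 12 tested genes of a 13-gene MGE interneuron list had log2 fold changes below 0, with a median of -0.79, and *Gad1* and *Gad2*, the enzymes of GABA synthesis, were called lower. *Nkx2-1*, an early marker of the same lineage, was at 0 in 5 of 8 libraries and was not tested. The summed level of the list ran from 103861 to 347464 in controls and from 50340 to 170514 in mutants, with mutants 4 and 5 below all controls. Each of the last 2 calls was lost without control 1, 3 or 4 or without mutant 4 or 5, where *Gad1* lay between -1.03 and -0.73 and *Gad2* between -0.97 and -0.62. In the 10-gene PV list all genes were below 0 (median -1.06), and 5 of them were called lower, *Pvalb* among them (log2 fold change -2.08 ± 0.78 SE, unadjusted p = 0.022, adjusted p = 0.58 by limma). The *Pvalb* call was lost without control 1 (-1.89), control 3 (-1.60), mutant 4 (-1.76) or mutant 5 (-1.51). In the 10-gene SST list 9 genes were below 0 (median -1.26), and 1, *Chodl*, was called lower, a call lost without control 1, 3 or 4 or without mutant 4 or 5 (-1.32 to -1). *Sst* itself ran from 31270 to 367992 normalized counts in controls and from 5964 to 143143 in mutants, and was not called (limma unadjusted p = 0.16, adjusted p = 0.62). In these bulk pulldowns fewer tagged cells or synapses and less RNA in each of them cannot be told apart.

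Other cell types were present too. *Slc17a7*, the vesicular glutamate transporter of excitatory neurons, which these interneurons should lack, had 92440 to 122229 normalized counts in controls and 87106 to 109409 in mutants. Of 12 excitatory neuron markers 8 were below 0 (median -0.18, summed level 141174 to 176575 in controls and 124983 to 153869 in mutants). Of 10 oligodendrocyte markers 10 were below 0 (median -0.62, summed 229955 to 673772 and 202878 to 287269), and 3 were called lower. Of 10 endothelial and mural markers 4 were called higher (median 0.54, summed 174080 to 274713 and 267749 to 287980). No marker of these 3 lists was at 0 in any library. Excitatory neurons express AMPA receptor subunits as well, and the part of these cells in the subunit counts was not tested.

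Across the 8 libraries the subunits followed the MGE interneuron list closely, as a plain description of libraries that also differ in genotype. Against the mean log2 level of the 12 listed genes, Pearson's r was 0.98 for *Gria1*, 0.80 for *Gria2*, 0.95 for *Gria3* and 0.95 for *Gria4* (exact permutation p = 0.00040, 0.016, 0.0019 and 0.00055, at most 0.032 after adjustment over 8 relations, n = 8). Spearman's rho was 0.90, 0.83, 0.90 and 0.98 (exact permutation p = 0.0046, 0.015, 0.0046 and 0.00040, at most 0.031 after adjustment). Without mutants 4 and 5, the libraries farthest from the median of the list, r was 0.95, 0.82, 0.96 and 0.87 over 6 libraries. After subtraction of each genotype's mean it was 0.98, 0.78, 0.93 and 0.93. Of all 31171 genes tested, 0.176% had an r at or above that of *Gria1*, 6.40% at or above that of *Gria2*, 1.41% at or above that of *Gria3* and 1.19% at or above that of *Gria4*. Against the 12 excitatory neuron markers r was 0.11, 0.20, 0.18 and 0.21 in the order of the genes (exact permutation p from 0.61 to 0.80, adjusted 0.76 to 0.80, n = 8), with rho of 0.071, 0.19, 0.26 and 0.31 (exact permutation p from 0.46 to 0.88, adjusted 0.72 to 0.88). Without control 5 and mutant 2, the libraries farthest from the median of that list, these r were 0.44, 0.78, 0.64 and 0.52 over 6 libraries. The low r over all 8 therefore depends on those 2 libraries. After subtraction of each genotype's mean, with all 8 libraries, r against the excitatory neuron markers was -0.16, 0.06, -0.06 and -0.09. No other list was correlated with the subunits, so the relation to the MGE list is not shown to be particular to it. The mean log2 level of the pan-neuronal list was highest in control 3 (13.59) and lowest in mutant 5 (12.43). The MGE list had its extremes in the same libraries (12.41 and 10.46).

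The subunits were also set against the MGE interneuron list within each library, whose mean differed between mutants and controls by -0.70 on the log2 scale. Relative to it, *Gria4* differed between mutants and controls by -0.05 ± 0.16 (SE, exact permutation p = 0.86, n = 4 each) and *Gria1* by 0.10 ± 0.08 (p = 0.31 by the same exact test). *Gria2* differed by 0.53 ± 0.28 and *Gria3* by 0.29 ± 0.16 (exact permutation p = 0.11 for each, 0.23 after adjustment over the 4 genes), with 3 of 4 mutants above all controls in each case. Without mutant 5 these were 0.36 and 0.17, and without mutant 2 they were 0.71 and 0.41. The share of all genes tested with 3 of 4 mutants above all controls on this scale was not computed. A gene at equal levels in both genotypes is higher in mutants on it, since the list mean is lower there. *Gria1* was at 0.043 without mutant 2 and 0.044 without the library labelled control replicate 1. The small *Gria4* difference has no stable sign: without the library labelled control replicate 1 it was 0.09, and without mutant 2 it was 0.02. Relative to *Gad1*, *Gad2* and *Slc32a1*, the genes of GABA synthesis and vesicular loading, whose mean differed by -1.09, the differences were 0.49, 0.92, 0.69 and 0.34 in the order of the genes, and none passed the test (exact permutation p from 0.11 to 0.26, n = 4 each).

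Relative to 10 pan-neuronal genes, whose mean differed by -0.57, *Gria2* was the subunit whose genotypes did not overlap. Its log2 level above that mean was 1.53, 1.51, 1.57 and 1.47 in controls 1, 3, 4 and 5, and 1.61, 2.01, 1.97 and 2.10 in mutants 2, 3, 4 and 5. All 4 mutants were above all controls, by a mean of 0.40 ± 0.11 (SE, exact permutation p = 0.029, the smallest that 4 against 4 allows, and 0.11 after adjustment over the 4 genes). *Gria1*, *Gria3* and *Gria4* differed by -0.03, 0.16 and -0.18 relative to the same genes (exact permutation p = 0.77, 0.29 and 0.43, n = 4 each). A difference of *Gria2* from the other 3 on this scale was tested as the pair ratios above, none of which passed. The share of all genes tested whose genotypes did not overlap on this scale was not computed. A gene at equal levels in both genotypes is higher in mutants on it, since the reference mean is lower there. The adjustment does not cover the other references, relative to which the genotypes overlapped for *Gria2*.

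The partners of AMPA receptors were described from 5 lists with 42 entries, of which 40 were in the table and tested. Of these, 7 were called lower and 0 higher in mutants (limma, 0 of them at an adjusted p under 0.05), 33 had a log2 fold change below 0, and the median was -0.35. That is 17.5% called lower, against 3.17% of all genes tested. At an unadjusted p under 0.05 there were 11 below 0 and 0 above, and 1 gene was called higher by edgeR and by DESeq2. The count called lower depends on the libraries: it was 2 without control 1, 1 without control 3, 4 without mutant 4, 3 without mutant 5 and 14 without control 5. The summed level of the 40 genes was 297180 to 447141 in controls and 246558 to 283398 in mutants, beside the lower sums of MGE markers given above, and the part of those cells in these counts was not tested.

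Auxiliary subunits bind the receptor in the membrane and set its traffic and gating. Of 16 tested, 15 were below 0 (median -0.43), and 2 were called lower. *Cacng2*, which encodes stargazin, had 6687, 5231, 2517 and 2532 normalized counts in controls 1, 3, 4 and 5, and 1943, 2738, 1816 and 1936 in mutants 2, 3, 4 and 5. Controls 1 and 3 were above all other libraries, and mutant 3 was above controls 4 and 5. The log2 fold change was -0.89 ± 0.33 (SE, limma unadjusted p = 0.019, adjusted p = 0.58), and the call was lost without control 1 (-0.63) or control 3 (-0.75). *Prrt1*, which encodes the auxiliary protein SynDIG4, had 240, 594, 385 and 309 in controls and 215, 168, 210 and 205 in mutants. All mutants were below all controls (log2 fold change -0.86 ± 0.34 SE, limma unadjusted p = 0.030, adjusted p = 0.58), but the call was lost without control 3 (-0.62), control 4 (-0.83), mutant 3 (-0.78) or mutant 5 (-0.88). *Cnih2*, a cornichon that slows receptor deactivation, was at -0.57 ± 0.25, with a limma unadjusted p of 0.043 (adjusted 0.58) but a fold change under 1.5, and *Cnih3* was at -0.40 ± 0.21. Among the other transmembrane regulators *Cacng3* was at -0.57 ± 0.27, *Cacng8* at -0.26 ± 0.46 and *Shisa9* at -0.49 ± 0.30, and none was called. Without control 4 or control 5, *Cnih2* (-0.72 and -0.68) and *Cacng3* (-0.68 and -0.76) were called lower. Both were also called by edgeR (-0.59 and -0.61) and DESeq2 (-0.60 and -0.62), and *Shisa9* was called with library weights (-0.71). *Gsg1l*, a negative regulator of the receptor, was at 0.30 ± 0.29 and was the 1 auxiliary gene above 0.

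The genes of receptor assembly and turnover had the lowest median, -0.68, with 9 of 9 below 0. Called lower were *Porcn* (-0.88 ± 0.37), *Abhd12* (-0.74 ± 0.31) and *Olfm1* (-0.68 ± 0.27), with limma unadjusted p of 0.037, 0.037 and 0.026 and adjusted p of 0.58. *Olfm1*, an olfactomedin found in native receptor complexes, had 146543, 122668, 91371 and 80475 normalized counts in controls 1, 3, 4 and 5, and 64232, 71442, 64105 and 67746 in mutants 2, 3, 4 and 5. All mutants were below all controls. *Porcn* encodes an acyltransferase better known for Wnt ligands that also binds AMPA receptors, and *Abhd12* a serine hydrolase of the complex, and both had mutants inside the control range. *Porcn* and *Abhd12* lost the call without control 1 (-0.68 and -0.65), control 3 (-0.68 and -0.52), mutant 4 (-0.77 and -0.66) or mutant 5 (-0.69 and -0.61). *Olfm1* lost it without control 1 (-0.53), control 3 (-0.62), mutant 2 (-0.66), mutant 4 (-0.66) or mutant 5 (-0.69).

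Neuronal pentraxins gather AMPA receptors from the outside, at synapses onto PV+ cells among others. *Nptx2* had 3899, 3437, 2183 and 2016 normalized counts in controls 1, 3, 4 and 5, and 1905, 1756, 1669 and 1720 in mutants 2, 3, 4 and 5. It was lower in mutants, with no overlap (log2 fold change -0.65 ± 0.24 SE, limma unadjusted p = 0.019, adjusted p = 0.58). The call was lost without control 1 (-0.49) or control 3 (-0.55). The related *Nptx1* was at 0.23 ± 0.38 and was not called.

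Scaffold and sorting genes showed no common direction, with 7 of 11 below 0 and a median of -0.09. Their summed level was 80540 to 87250 in controls and 63735 to 76498 in mutants, with all 4 mutants below all controls. *Nsf* made up the largest part of that sum, with means of 48935 in controls and 34516 in mutants. It was lower in mutants, with no overlap (log2 fold change -0.50, 95% interval -0.97 to -0.03), and was not called. *Grip1*, whose protein holds the tails of GluA2 and GluA3, had 1192, 1254, 1411 and 1238 normalized counts in controls 1, 3, 4 and 5, and 671, 814, 760 and 921 in mutants 2, 3, 4 and 5. It was lower in mutants, with no overlap (log2 fold change -0.69 ± 0.20 SE, limma unadjusted p = 0.0051, adjusted p = 0.58). It was the 1 partner gene of the 7 whose call held in each of the 8 fits that left out a library. *Dlg4*, which encodes the postsynaptic scaffold PSD95, was at -0.31 ± 0.41 and was not called. Of the editing enzymes, *Adarb1*, which edits the *Gria2* pore codon, was at -0.01 ± 0.30, a value whose sign turned with the scaling and the libraries used, with counts of 905 to 2470 in controls and 1375 to 2045 in mutants. All mutants lay within the control range for *Adarb1*, as they did for *Gria2*. *Adar*, the other editing gene listed, had the highest log2 fold change of the 40 partner genes, 0.68 (95% interval -0.06 to 1.42), and was not called. Its counts were 2165, 3866, 6670 and 4990 in controls 1, 3, 4 and 5, and 4906, 5249, 8397 and 8482 in mutants 2, 3, 4 and 5.

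**Figure D5:**
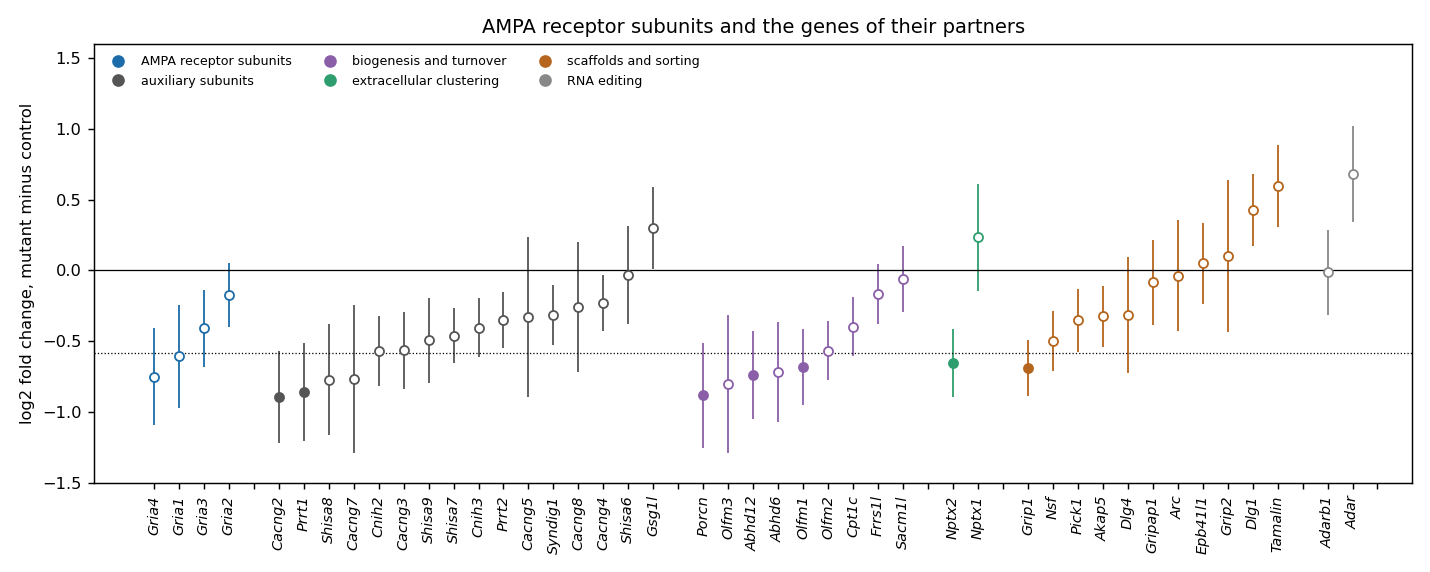
Log2 fold change (vertical axis, mutant minus control, bar of 1 SE) of the 4 subunits and 40 genes of their partners, coloured by list and ordered within it. Filled points meet both thresholds, and the dotted line marks a 1.5-fold decrease. The 7 filled points all lie below 0, and the subunits themselves are open.

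The other ionotropic glutamate receptor families gave medians nearer to 0 than the -0.51 of the AMPA receptor subunits, as a description. Of the NMDA receptor subunits 6 were tested, with a median log2 fold change of -0.17, a range from -0.57 to 0.04 and none called. Of the kainate receptor subunits 5 were tested, with a median of -0.13 and a range from -0.83 to 0.22, and 1 was called lower. All 3 families had members below -0.5, and the difference between families was not tested.

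The genes whose profile over the 8 libraries was most like each subunit's were taken from 13761 named genes with a mean of at least 100 normalized counts. Likeness was the root mean square difference between log2 profiles centred on their own means. Nearest to *Gria1* were *Pcdh8*, a protocadherin, at 0.057 and *Nrxn3*, a neurexin, at 0.084. Nearest to *Gria2* were *Azin2* at 0.075, *Rnmt* at 0.077 and *Ilf2* at 0.078. Nearest to *Gria3* were *Ncln* at 0.083, *Orai1* at 0.087 and *Ank* at 0.091, and nearest to *Gria4* were *St8sia3* at 0.083, *Mul1* at 0.089 and *Mfsd5* at 0.094. These genes were picked for the smallest differences, so the subunits are placed among all 13761 genes by rank. *Gria2* and *Gria3* were the closest pair at 0.20, and *Gria1* and *Gria2* the farthest at 0.46, with *Gria2* and *Gria4* at 0.42. In likeness to *Gria2*, *Gria3* ranked 515, *Gria4* 5282 and *Gria1* 6407. *Gria2* ranked 321 in likeness to *Gria3*, 1890 to *Gria1* and 2029 to *Gria4*.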

How the data were processed

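Ribosome-associated RNA was amplified from 1 ng with an ultra-low input kit and sequenced on both ends. The authors aligned reads with STAR 2.4.0 to mm10, counted them on constitutive regions of the Mouse Fast DB annotation and deposited DESeq2-normalized counts, a signal with 1 size factor per library. Each library's values were divided by the value of 1 read, and whole reads were recovered for 100% of the values within 0.01 of a read. The test used normalized counts. Genes whose mean reached 10 in either genotype were fitted by limma 3.58.1 (lmFit, eBayes with trend) in R 4.3.3 on log2(normalized count + 1), without covariates, with Benjamini-Hochberg adjustment over all genes tested. Fold changes are on that scale. Calls needed a 1.5-fold change and an unadjusted p no higher than 0.05. edgeR 4.0.16 (quasi-likelihood) and DESeq2 1.42.0 were run on the recovered reads as alternatives. The procedure was tested on simulated data. Permutation tests were two-sided and exact, over libraries. Relations to marker lists were added after the values had been seen.

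The genes named are the 4 subunits, *Erbb4*, *Lhx6*, *Pvalb*, *Sst*, *Slc17a7*, each called gene of the 5 partner lists, *Cacng2*, *Cacng3*, *Cacng8*, *Cnih2*, *Cnih3*, *Gsg1l*, *Shisa9*, *Dlg4* and *Adarb1* whatever their values, and the 3 nearest profiles of each subunit, of which 1 is not reported here. *Gad1*, *Gad2*, *Slc32a1*, *Chodl*, *Nkx2-1*, *Nptx1*, *Adar* and *Nsf* were named after their values had been seen. Members and lists were chosen with earlier results of these data known. The study states that libraries were sequenced in batches, but no label assigns them, so within-batch values are not given.

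For the remaining marker lists, the median log2 fold change was -0.54 for CGE interneurons (0 of 10 called), -0.54 for pan-neuronal genes (4 of 10 called lower), -0.11 for astrocytes (0 of 10), 0.04 for oligodendrocyte precursors (0 of 8) and -0.44 for microglia (0 of 10). Sequences and lengths came from GENCODE vM21 transcripts on GRCm38.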

Additional observations from a re-analysis of the deposited data

Results flagged for a closer look

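In 76 groups of 4 libraries, 4 held a library far from the other 3 by Dixon's test, where chance gives about 3.8. Mutant 3 had 2738 normalized counts of *Cacng2* against 1816 to 1943 in the other mutants. The same library had 7916 of *Cacng3* against 5887 to 6146. Control 1, the library labelled control in which *Erbb4* was low, had a *Gria1*/*Gria3* ratio of 2.19 against 2.84 to 2.94 in the other controls. It also had *Gria4* at 1.39 above the MGE interneuron list on the log2 scale, against 0.78 to 0.88.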

How the results depend on the processing

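No direction of a subunit changed in 20 alternatives. *Gria1* was called lower with library weights (-0.88). *Gria4* was called lower at pseudocount 10 (-0.75), with library weights (-0.82), with DESeq2 (-0.73) and with the first residual component (-0.75). Without 1 library in turn the log2 fold change of *Gria3* ran from -0.62 to -0.22 and that of *Gria4* from -1.02 to -0.56. Genes called lower, 988, became 1633 with library weights, 1573 with DESeq2 and 515 to 1977 without 1 library, and genes called higher, 1241, became 1997 with weights, 2431 with the residual component and 619 to 1792 without 1 library. Partner genes called lower, 7, became 3 without trend and 1 to 14 without 1 library. Partner genes called higher, 0, became 1 with weights, edgeR, DESeq2 and the residual component, 2 with quantile normalization and 0 to 1 without 1 library. The cause of these shifts was not tested.

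Shares in controls per coding length were 40.5% for *Gria1*, 35.8% for *Gria2* and 15.2% for *Gria3*, and without length correction 41.0%, 35.3% and 15.1%, which follows from the length of the *Gria2* transcript. The *Gria1*/*Gria4* log2 difference ran from -0.048 to 0.22 without 1 library, and the *Gria3* share difference from -0.17 to 1.7 points. Relative to the MGE list, *Gria4* ran from -0.11 to 0.091 without 1 library and was 0.34 against *Gad1*, *Gad2* and *Slc32a1*, and *Gria1* was -0.034 against pan-neuronal genes.

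Replicate numbers were shared by 3 pairs, and deviations of same-numbered libraries correlated across genes at 0.10, 0.098 and 0.082, against -0.115 to 0.085 for other pairs. Not every pair was over 0.1, and control 5 correlated as well with mutant 4 (0.085) as with its own number, so the numbers were not taken to pair the libraries. Controls 1 and 3 with mutants 2 and 3 gave 0.023 to 0.10, controls 4 and 5 with mutants 4 and 5 gave 0.082 to 0.098, and the remaining pairs -0.115 to -0.029. The study states 2 sequencing batches, and whether these sets are those batches was not tested. With the replicate block, which takes the genotype difference from the 6 libraries with a shared number, *Gria1* was -0.90 and *Gria4* -0.72, both called, 1719 genes and 11 partner genes were called lower and 1 partner gene higher, *Gria1*/*Gria2* was -0.80, *Gria1*/*Gria3* -0.47 and *Gria1*/*Gria4* -0.17, *Shisa9* was called (-0.74), and relative to the MGE list the subunits were at -0.010, 0.79, 0.46 and 0.16.

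Of 400 values of single named genes, 338 kept their direction and their side of the thresholds, 36 fell out of and 18 came into a call, and 8 changed sign, none of them of a called gene. *Adarb1* became 0.030 with quantile normalization and 0.0090 with TMM scaling and ran from -0.31 to 0.17 without 1 library (0.018 without control 3, 0.072 without control 4, 0.17 without control 5, 0.028 without mutant 2 and 0.081 without mutant 3), and *Slc17a7* became 0.16 with quantile normalization. Depth does not limit the counts of the 4 subunits, and 4 libraries a genotype limit each result.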
